A study of Mus musculus with 6 samples.

Results

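Transcripts stored in the mouse egg that were plentiful in wild-type (WT) zygotes and had almost left the RNA pool by the 2-cell stage numbered 85 of 23259 gene names in a table of metabolically labelled RNA. They were chosen on measured values: at least 300 reads in WT zygotes, and a 2-cell level under 10% of the WT zygote level, both in RPM, the reads of a gene scaled to the total of its column. Of the 2112 genes with at least 300 WT zygote reads, 2027 were not selected, and 19 of these met both limits and were left out because their names belong to 6 large families (Hist, Zfp, Slc, Nlrp, Obox and Fbxw). The 2-cell level is therefore a description of the choice. The rule did not use the reads of the Pabpn1l-null zygotes. It did not use the reads with a T-to-C mismatch by themselves. In the 2-cell and WT zygote columns, though, these are part of the total reads that it used.

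The series holds 6 samples in 3 groups of 2, all from mouse: zygotes of the genotype Pabpn1l-null, 2-cell embryos of WT genotype and zygotes of WT genotype. Per the labels' protocols, each sample was made from 50 zygotes of mated females, taken 26 h after an injection of hCG, the hormone that triggers ovulation, and cultured for 2 h with 200 μM 4-thiouridine, a uridine analogue that cells build into new RNA. Alkylation with iodoacetamide makes the labelled positions read as T-to-C mismatches, and ribosomal RNA was depleted in place of a selection for poly(A) tails. The same protocol text stands on all samples, so no separate collection time is known for the 2-cell embryos, and the labels give neither strain, allele structure nor how the null zygotes were bred. The table has 1 pair of count columns per group, all reads and T-to-C reads, so no value has a replicate, no p-value can be given, and the brackets below are exact 95% counting intervals that leave out the spread between embryos.

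A growing oocyte fills its cytoplasm with messenger RNA and then stops transcribing, and the embryo destroys most of this store while its own genome switches on. Clearance runs through shortening of the poly(A) tail by the CCR4-NOT deadenylase, which the adaptor BTG4 brings to maternal messages during meiotic maturation, and PABPN1L is an oocyte poly(A)-binding protein known to work with BTG4 in this step.

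The columns held 1270347 reads on named genes in null zygotes, 4020444 in 2-cell embryos and 3001472 in WT zygotes. The null column was the shallowest and had more zeros than independent reads would give, as if its reads came in clumps. Of 969 genes that WT zygotes predicted to have 3 to 5 reads there, 54.9% had none, against 2.08% if reads were independent. For this reason 7 reads were counted as 1 molecule in every interval. The clump size was read only from the zeros of the null column and was not measured in the 2-cell and WT zygote columns. How far counting error in the low WT zygote counts or real differences between the columns added to these zeros was not tested. Pabpn1l itself had 4 reads in null zygotes, 14 in 2-cell embryos and 47 in WT zygotes, a null-to-WT ratio of 0.201 [0.000404 to 2.34] that this depth cannot tell from 1, and where the deletion lies relative to the counted part is unknown. The 10 oocyte markers summed to 17305 RPM in null zygotes, 2930 in 2-cell embryos and 13258 in WT zygotes, with Bmp15 and Gdf9 the main contributors and none of them at 0 (Ooep and Zar1 are both markers and members). These markers did not move together: the null-to-WT ratio was 2.75 for Gdf9 and 0.782 for Ooep. Bmp15, with 9708 reads in null zygotes and 26444 in WT zygotes, held a smaller share of the null column. The 12 cumulus and granulosa markers summed to 65.3 RPM in null zygotes, 86.8 in 2-cell embryos and 101 in WT zygotes. Of these, Amh, Inha, Inhba, Ptx3 and Tnfaip6 were at 0 in all 3 columns. Nr5a2 had the most reads, with 41 in null zygotes, 241 in 2-cell embryos and 134 in WT zygotes. Kitl had 15 in null zygotes, 70 in 2-cell embryos and 46 in WT zygotes, and Cyp19a1 23, 0 and 80. Foxl2, Fshr, Has2 and Star had fewer. The 7 sperm markers had 0 reads in null zygotes, 4 in 2-cell embryos and 8 in WT zygotes, and the blood markers 1 read in null zygotes, 37 in 2-cell embryos and 42 in WT zygotes.

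The 85 transcripts held 34739 reads in null zygotes (2.73% of the column), 8763 in 2-cell embryos (0.218%) and 102973 in WT zygotes (3.43%). Their median level in 2-cell embryos was 6.98% of that in WT zygotes. For 58 of them it lay between 5% and 10%, for 27 under 5% and for 5 under 1%. These levels are shares of a column, so the absolute amount per embryo is unknown, and how far the rest of the RNA pool changed was not measured. In the same columns 1036 genes had a 2-cell level between 0.5 and 2 of the WT zygote level, and they held 37.8% of reads in 2-cell embryos and 37.5% in WT zygotes. That set was chosen on the same 2 columns, so the closeness of its shares follows largely from the choice. The word "maternal" rests on the reads of WT zygotes, since no oocyte sample was used here. The members' median T-to-C share in WT zygotes was 1.96%, as described further on. Just inside the 10% limit lay Gm5465 (9.80%), Clcc1 (9.78%), Gm19757 (9.78%), Chdh (9.71%) and Cdo1 (9.64%), and just outside it Gm4745 (10.03%), Mtus2 (10.1%), Arl6ip1 (10.2%), Melk (10.3%) and Elof1 (10.3%). At the limit on reads, Ttc34 with 300 WT zygote reads was the last member, and Tmem186 with 299 the next gene below it.

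Promoter sequences, which cover the 250 bases before and 50 bases after a transcript's start, were taken from RefSeq on GRCm38.p6 and were found for 66 of the 85 members. They are shown for the named member with most reads (Rgs2), for the egg genes Ooep and Zar1, for Lypd3, which had no read in 2-cell embryos, and for Aspm, the member with the lowest null-to-WT ratio. Capitals mark matches on either strand to a few short motifs. They are the CCAAT box, the E-box core CANNTG, bound by oocyte factors of the basic helix-loop-helix class such as FIGLA, the homeobox core TAATTG, of the kind NOBOX binds, and the TATA box TATAAA, of which these 5 windows hold none.
Rgs2 (chr1:144004100-144004399, minus strand): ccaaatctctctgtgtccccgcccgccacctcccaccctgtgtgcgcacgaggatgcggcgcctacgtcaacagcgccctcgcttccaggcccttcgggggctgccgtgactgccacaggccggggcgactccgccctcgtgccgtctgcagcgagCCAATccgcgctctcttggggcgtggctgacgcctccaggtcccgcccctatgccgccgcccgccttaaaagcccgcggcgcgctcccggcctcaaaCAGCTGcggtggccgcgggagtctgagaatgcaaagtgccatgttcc
Ooep (chr9:78378539-78378838, minus strand): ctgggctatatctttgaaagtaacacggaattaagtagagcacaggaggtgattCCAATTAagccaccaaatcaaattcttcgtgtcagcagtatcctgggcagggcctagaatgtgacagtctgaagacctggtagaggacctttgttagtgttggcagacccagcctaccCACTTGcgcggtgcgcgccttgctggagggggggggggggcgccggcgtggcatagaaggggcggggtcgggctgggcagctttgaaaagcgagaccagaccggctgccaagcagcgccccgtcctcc
Zar1 (chr5:72581035-72581334, minus strand): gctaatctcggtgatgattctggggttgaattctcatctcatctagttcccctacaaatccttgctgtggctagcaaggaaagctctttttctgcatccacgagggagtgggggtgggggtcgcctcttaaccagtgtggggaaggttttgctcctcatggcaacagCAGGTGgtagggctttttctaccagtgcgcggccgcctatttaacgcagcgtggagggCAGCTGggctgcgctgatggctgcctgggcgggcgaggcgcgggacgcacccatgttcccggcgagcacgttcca
Lypd3 (chr7:24636320-24636619, plus strand): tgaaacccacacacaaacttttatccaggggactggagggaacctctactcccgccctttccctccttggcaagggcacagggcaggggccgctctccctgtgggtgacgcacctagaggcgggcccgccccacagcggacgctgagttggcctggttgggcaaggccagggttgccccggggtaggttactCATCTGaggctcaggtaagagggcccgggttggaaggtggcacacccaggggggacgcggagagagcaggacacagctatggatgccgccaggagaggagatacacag
Aspm (chr1:139454523-139454822, plus strand): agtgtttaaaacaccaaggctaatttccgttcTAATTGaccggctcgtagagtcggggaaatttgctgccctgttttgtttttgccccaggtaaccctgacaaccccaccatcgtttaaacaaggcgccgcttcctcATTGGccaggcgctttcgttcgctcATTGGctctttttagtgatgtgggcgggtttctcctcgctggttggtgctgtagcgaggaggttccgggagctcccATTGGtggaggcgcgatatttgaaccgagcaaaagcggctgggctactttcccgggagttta
The 5 windows differ in base composition: the Rgs2 window has 33 CG pairs, Aspm 19, Zar1 17, Ooep 15 and Lypd3 12. In the Ooep window the CCAAT box and the homeobox core, which is read on the opposite strand, share letters in 1 capital run. The Aspm window has 3 matches to CCAAT, each read on the opposite strand, and the Zar1 window has 2 matches to CANNTG. In all 66 member promoters the median was 15 CG pairs, against 24 in 1645 promoters of the other genes with at least 300 WT zygote reads and 7 in all 27025 promoters of the table. The median G+C content was 57.3% in members, 63.0% in those other genes and 52.7% in all promoters. Promoters with 5 or fewer CG pairs made up 19.7% of members, 9.12% of the other genes and 43.6% of all promoters, and they include those of the PRAME family genes Gm13084, C87499, Gm13103 and Gm13125 and of Oas1h, Gpr1 and Plac1l. CANNTG was found in 72.7% of member promoters, 61.8% of those of the other genes and 72.1% of all. TAATTG was found in 12.1% of member promoters, 6.08% of those of the other genes and 8.15% of all, and TATAAA in 12.1% of members, 6.93% of the other genes and 14.2% of all. The CCAAT box was found in 33.3% of members, 40.1% of the other genes and 37.9% of all. These matches are a description of letters and not of binding.

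**Figure D1:**
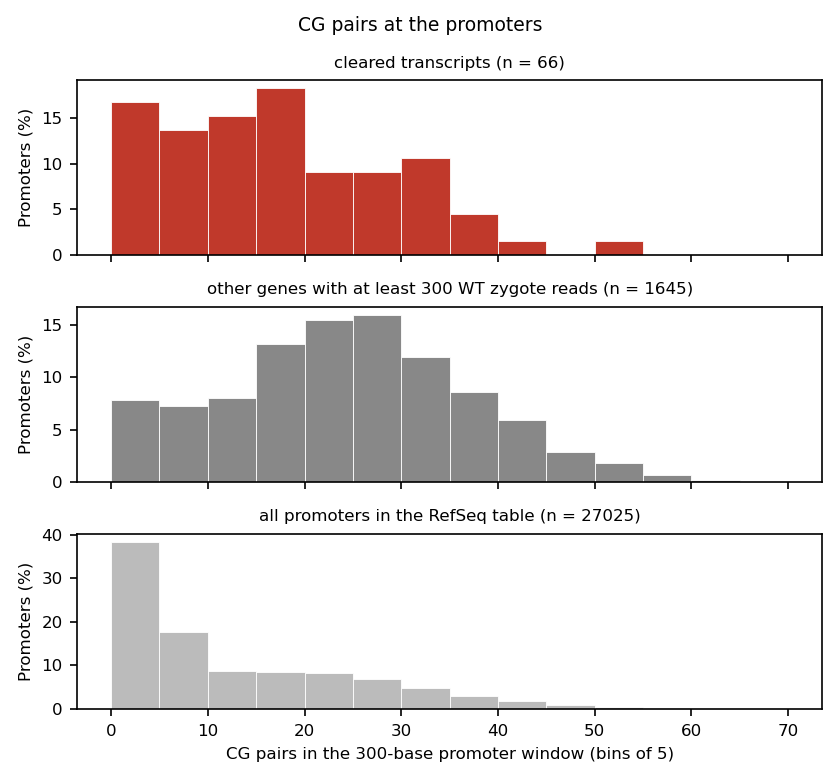
Number of CG pairs in the 300-base promoter window (x axis, bins of 5) as a percentage of promoters (y axis), for 66 cleared transcripts, 1645 other genes with at least 300 WT zygote reads and all 27025 RefSeq promoters. The members' median of 15 lies between 24 in the other genes and 7 in all promoters.

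Null and WT zygotes were set side by side to describe these transcripts in the absence of PABPN1L. Members were by choice still plentiful in WT zygotes, messages already low there were left out, and the series has no null 2-cell embryos. Whether members were retained past the zygote stage without PABPN1L was therefore not tested. Most members did not hold a larger share of the column in null zygotes: 62 of 85 (72.9%) had a null-to-WT ratio under 1, against 56.8% of the other 2027 genes. Each ratio compares shares of a column, so the amount per zygote is unknown. The median ratio of members was 0.765, with quartiles of 0.619 and 1.02 and extremes of 0.286 and 2.37. On the log2 scale the median was -0.38 in members and -0.08 in the other genes. Summed over members, the ratio in RPM was 0.797 [0.772 to 0.823], against 0.990 for the sum of the other genes, and it was 0.803 without 4933427D06Rik, the member with most reads. This ratio and the 2-cell ratio of the rule share the WT zygote column as their base, so a count that is high there by counting error lowers both, and the members' shift is given as a description only.

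**Figure D2:**
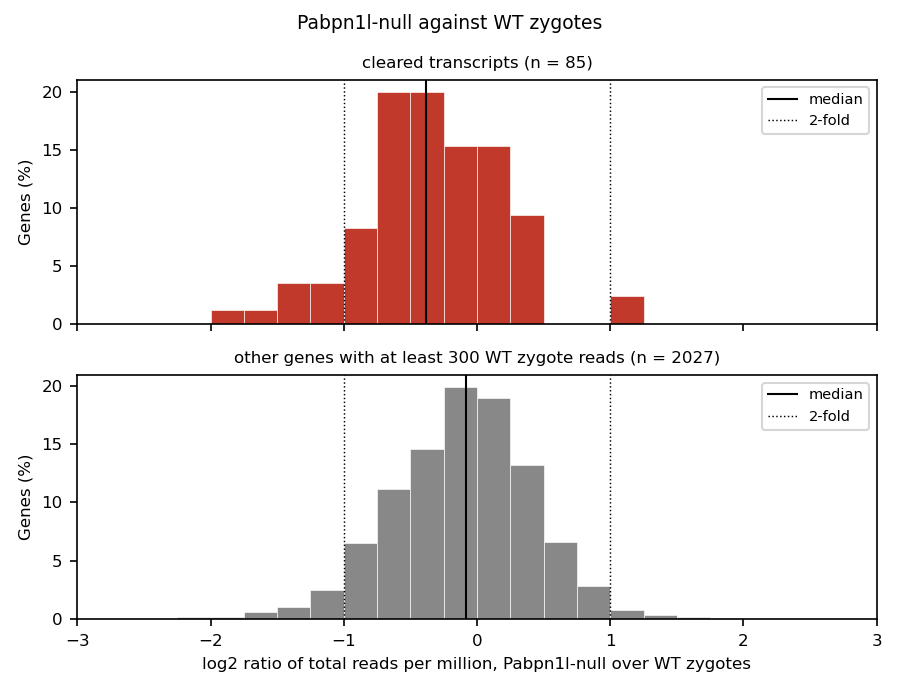
Distribution of the log2 ratio of total reads (RPM) in Pabpn1l-null over WT zygotes (x axis) as a percentage of genes (y axis), for the 85 cleared transcripts above and the 2027 other genes below. Solid lines mark the medians (-0.38 and -0.08) and dotted lines 2-fold.

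At 2-fold or more with an interval that left out 1, 2 members were higher in null zygotes, Zar1 and Cpsf4l, which is 2.35% of members against 1.7% of all 2112 genes with at least 300 WT zygote reads. At the same fold 8 members were lower, 9.41% of members against 4.97% of all. These were Aspm, Ttk, Wdr92, Ttc34, C130060K24Rik, Gpr1, 2010002M12Rik and Gm12633. The other 75 members lay within 2-fold. With RLE scaling the 10% limit left 56 members, neither Zar1 nor Cpsf4l among them, and with 20 reads counted as 1 molecule 5 of the 10 calls were left.

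Among the members were 3 transcripts of egg-specific proteins. Zar1 encodes an RNA-binding protein that holds maternal messages in the oocyte and that the embryo needs to pass the zygote stage. Its reads numbered 577 in null zygotes, 71 in 2-cell embryos and 575 in WT zygotes, or 454 RPM in null zygotes, 17.7 in 2-cell embryos and 192 in WT zygotes. Null zygotes were the highest of the 3 columns, at 2.37 times WT zygotes [1.73 to 3.26], and 2-cell embryos the lowest. Ooep, a subunit of the subcortical maternal complex that lies under the egg membrane, had 789 reads in null zygotes, 226 in 2-cell embryos and 2384 in WT zygotes, a null-to-WT ratio of 0.782 [0.626 to 0.970]. Plac1l, whose current symbol is Oosp2 and which encodes an oocyte-secreted protein, had 178 reads in null zygotes, 43 in 2-cell embryos and 352 in WT zygotes and a ratio of 1.19 [0.711 to 1.96]. Zar1 was the only egg transcript of the 3 past 2-fold in null zygotes, with an interval that overlapped that of Plac1l, and in 2-cell embryos all 3 were between 7% and 10% of their WT zygote level. Lypd3, a GPI-anchored surface protein, had 161 reads in null zygotes, 0 in 2-cell embryos and 311 in WT zygotes. Taking 21 reads as the limit that a count of 0 allows and the WT zygote count as fixed, it was at least 19.8-fold lower in 2-cell embryos than in WT zygotes. The 2-sided interval, in which the WT zygote count also varies, is wider and reaches 6.46% of the WT zygote level, and the null-to-WT ratio was 1.22 [0.706 to 2.07]. Of 32 listed genes of secreted oocyte proteins, the zona and the egg surface, 13 had at least 300 WT zygote reads, 2 were higher past 2-fold in null zygotes and 0 lower, against 1.7% higher and 4.97% lower among all 2112 genes. The 2 were the growth factor gene Gdf9 (8846 reads in null zygotes and 7594 in WT zygotes, ratio 2.75 [2.54 to 2.99]) and the protease gene Furin (734 reads in null zygotes and 352 in WT zygotes, ratio 4.93 [3.49 to 7.04]), neither of them a member.

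**Figure D3:**
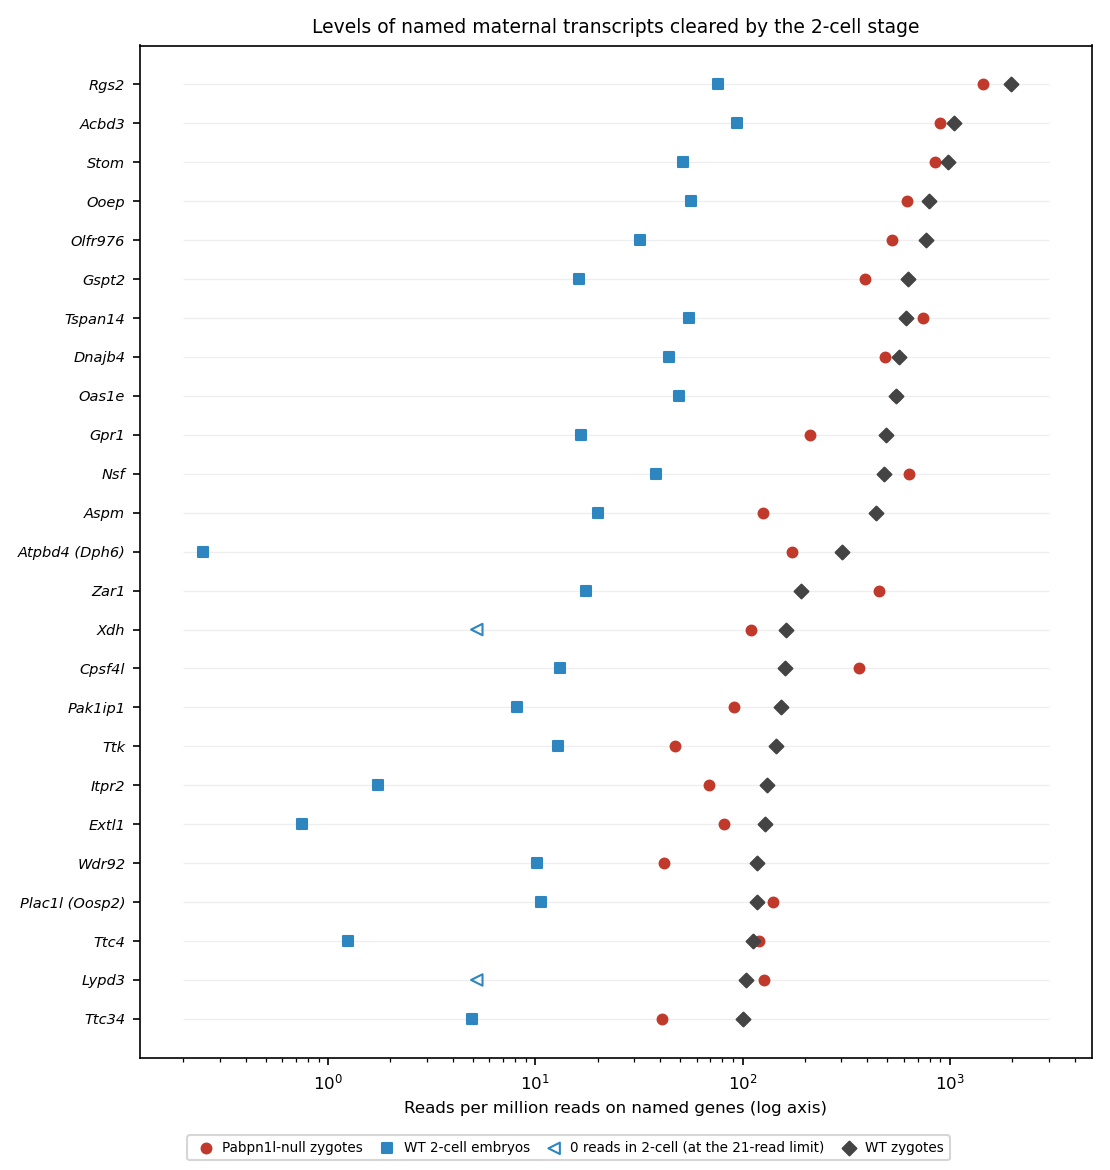
Level of 25 named members in RPM (x axis, log scale) in Pabpn1l-null zygotes (circles), WT 2-cell embryos (squares, or an open triangle at the 21-read limit for 0 reads) and WT zygotes (diamonds). Null and WT zygotes lie close together for most genes and far above 2-cell embryos; Zar1 and Cpsf4l are higher in null zygotes, and Aspm, Gpr1, Ttk, Wdr92 and Ttc34 lower. For Oas1e the circle lies under the diamond.

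Transcripts of RNA, translation and protein quality control formed a group of 13, with a median null-to-WT ratio of 0.761. Cpsf4l, a relative of a subunit of the complex that cleaves and polyadenylates pre-mRNA, had 463 reads in null zygotes, 53 in 2-cell embryos and 482 in WT zygotes. It was the group's only member past 2-fold, with a ratio of 2.27 [1.59 to 3.23]. Gspt2, a paralogue of the translation termination factor eRF3, had 496 reads in null zygotes, 65 in 2-cell embryos and 1890 in WT zygotes, a ratio of 0.620 [0.470 to 0.808]. The co-chaperones Dnajb4 (618 reads in null zygotes, 178 in 2-cell embryos and 1707 in WT zygotes) and Ttc4 (152 reads in null zygotes, 5 in 2-cell embryos and 338 in WT zygotes) had ratios of 0.855 [0.663 to 1.10] and 1.06 [0.609 to 1.80]. Ttc4 was among the most completely lost members, at 1.10% of its WT zygote level in 2-cell embryos [0.00765% to 8.20%]. Atpbd4, now Dph6, an enzyme of diphthamide synthesis on elongation factor 2, stood lower still, with 220 reads in null zygotes, 1 in 2-cell embryos and 905 in WT zygotes. Its 2-cell level was 0.0825% of the WT zygote level, with a counting interval that reaches 2.33%, and its null-to-WT ratio was 0.574 [0.376 to 0.854]. Pak1ip1 and Riok1, which act in ribosome assembly, had ratios of 0.593 and 0.710, both with intervals that reached 1 or above.

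Signalling transcripts numbered 10, with a median ratio of 0.720 and 2 of the 10 lower past 2-fold, against 4.97% of all 2112 genes. Rgs2, an inhibitor of Gq signalling known in mouse eggs for holding back calcium release before fertilization, had 1844 reads in null zygotes, 307 in 2-cell embryos and 5922 in WT zygotes. The null column was below the WT zygote column, at a ratio of 0.736 [0.638 to 0.846], and the 2-cell level was 3.87% of WT zygotes. Itpr2, a calcium channel of the endoplasmic reticulum gated by inositol trisphosphate, had 88 reads in null zygotes, 7 in 2-cell embryos and 394 in WT zygotes, a 2-cell level of 1.33% [0.0330% to 7.70%] and a ratio of 0.528 [0.262 to 0.984]. Gpr1, a receptor for the adipokine chemerin, had 268 reads in null zygotes, 67 in 2-cell embryos and 1484 in WT zygotes, and its ratio of 0.427 [0.294 to 0.604] left out 1. C130060K24Rik (Qrfprl in RefSeq) had 58 reads in null zygotes, 31 in 2-cell embryos and 334 in WT zygotes and a ratio of 0.410 [0.170 to 0.866]. Olfr976, an olfactory receptor gene, had 665 reads in null zygotes, 129 in 2-cell embryos and 2296 in WT zygotes and a ratio of 0.684 [0.539 to 0.862]. In this group Lamtor3, Rhbdf1 and Cab39l were the members with ratios above 1, between 1.04 and 1.20, each with an interval that held 1. Of 55 listed genes of egg activation and calcium signalling, 14 had at least 300 WT zygote reads, Rgs2 and Itpr2 among them. Of these 14, 0 were past 2-fold in either direction, against 1.7% higher and 4.97% lower among all 2112 genes.

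The spindle, DNA repair or genome defence were served by 8 transcripts, and their median ratio was 0.746, with 2 of 8 lower past 2-fold against the 4.97% of all genes. The 2 with the lowest ratios of all members were both spindle genes. Aspm, which focuses microtubules at spindle poles, had 160 reads in null zygotes, 81 in 2-cell embryos and 1320 in WT zygotes, a ratio of 0.286 [0.177 to 0.443]. Ttk, the spindle checkpoint kinase also called MPS1, had 60 reads in null zygotes, 52 in 2-cell embryos and 436 in WT zygotes, a ratio of 0.325 [0.139 to 0.667]. Another, smaller row of the table under the name Ttk had a ratio of 0.518 on 23 reads in null zygotes and 105 in WT zygotes. For Aspm the null column lay between the 2-cell and WT zygote columns both in reads and in RPM. The spindle protein gene Dlgap5 (102 reads in null zygotes, 27 in 2-cell embryos and 336 in WT zygotes) had a ratio of 0.717 [0.370 to 1.31], the dynactin subunit gene Dctn5 0.993, the uracil-DNA glycosylase gene Smug1 1.06 and the piRNA factor gene Tdrd12 1.10. A smaller row under the name Dlgap5 had a ratio of 1.21 on 39 reads in null zygotes and 76 in WT zygotes. The other members of the group were Fam175a (Abraxas1 in RefSeq), with a ratio of 0.531 [0.237 to 1.08], and Rnf219 (Obi1), with 0.774 [0.454 to 1.27]. The intervals of Dlgap5 and Dctn5 held 1, so the 2-fold lower spindle transcripts were Aspm and Ttk only. In a list of 71 meiosis, spindle and checkpoint genes, 23 had at least 300 WT zygote reads, and 1 was higher past 2-fold in null zygotes and 2 lower, against 1.7% higher and 4.97% lower among all genes. The higher gene was Mos, the kinase that holds the egg in metaphase (275 reads in null zygotes and 303 in WT zygotes, ratio 2.14 [1.36 to 3.38]). The lower genes were Ttk and Mastl, a kinase that restrains the phosphatase opposing mitotic kinases (49 reads in null zygotes and 339 in WT zygotes, ratio 0.342 [0.130 to 0.759]).

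Membrane and trafficking transcripts formed the largest group, 14 genes with a median ratio of 0.812. None was past 2-fold, against 1.7% higher and 4.97% lower among all 2112 genes. The Golgi scaffold gene Acbd3 had 1139 reads in null zygotes, 378 in 2-cell embryos and 3159 in WT zygotes, a ratio of 0.852 [0.708 to 1.02]. Stom, a raft-associated membrane protein, had 1072 reads in null zygotes, 208 in 2-cell embryos and 2943 in WT zygotes and a ratio of 0.861 [0.711 to 1.04]. Tspan14, a tetraspanin that escorts the protease ADAM10, had 942 reads in null zygotes, 222 in 2-cell embryos and 1844 in WT zygotes and a ratio of 1.21 [0.973 to 1.49]. Nsf, the ATPase that takes SNARE complexes apart, had 809 reads in null zygotes, 153 in 2-cell embryos and 1440 in WT zygotes, and at 1.33 [1.05 to 1.68] it was the group's highest ratio. The lowest was 0.502, for the lipid flippase gene Atp8a1, with an interval that held 1.

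The 10 metabolic and redox transcripts had a median ratio of 0.666 and none past 2-fold, against 1.7% higher and 4.97% lower among all 2112 genes. Xdh, xanthine dehydrogenase, which makes uric acid from purines, had 139 reads in null zygotes, 0 in 2-cell embryos and 485 in WT zygotes. On the same limit its level was at least 30.9-fold lower in 2-cell embryos than in WT zygotes, with a 2-sided interval that reaches 4.08%, and its null-to-WT ratio was 0.677 [0.389 to 1.13]. Extl1, a glycosyltransferase of heparan sulfate synthesis, had 103 reads in null zygotes, 3 in 2-cell embryos and 385 in WT zygotes, a 2-cell level of 0.582% [0.000185% to 6.40%] and a ratio of 0.632 [0.330 to 1.14]. Ratios in the group ran from 0.564 for the pentose phosphate enzyme gene Rpe to 1.26 for the glutaredoxin gene Glrx. Akr1b3, aldose reductase, had the same counts as Gm6644 in all 6 columns (240 reads in null zygotes, 87 in 2-cell embryos and 931 in WT zygotes), so the pair holds 1 measurement and the members 84.

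Gene families were represented by the PRAME and antiviral genes. The 4 PRAME family genes, whose relatives are expressed in testis and early embryo, lie on chromosome 4, and Gm13084 and Gm13103 (Pramel26 and Pramel27 in RefSeq) are 30.4 kb apart. Gm13084 had 1354 reads in null zygotes, 301 in 2-cell embryos and 4682 in WT zygotes, a ratio of 0.683 [0.579 to 0.803]. C87499 and Gm13125 had ratios of 0.663 and 0.608, and Gm13103 1.02. Since these copies resemble each other, how the authors' counting split reads among them limits each value. Among 5 genes of antiviral sensing, Oas1e and Oas1h, oligoadenylate synthetase relatives 65.9 kb apart on chromosome 5, had ratios of 1.004 [0.786 to 1.27] and 1.06 [0.817 to 1.37]. E330016A19Rik, the DNA sensor gene Cgas, which lies 51.9 kb from Ooep on chromosome 9, had 184 reads in null zygotes, 45 in 2-cell embryos and 483 in WT zygotes and a ratio of 0.900. The interferon-induced IFIT relative 2010002M12Rik (Ifit1bl2) had 705 reads in null zygotes, 388 in 2-cell embryos and 3480 in WT zygotes and was the group's only member past 2-fold, at 0.479 [0.382 to 0.594]. The intervals of Oas1e and Oas1h held 1 and did not overlap that of Ifit1bl2.

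Of the members without a protein, 4 were long non-coding RNAs and 3 pseudogenes in RefSeq. 4933427D06Rik had the most reads of any member: 4540 in null zygotes, 1674 in 2-cell embryos and 14162 in WT zygotes, a ratio of 0.757 [0.692 to 0.828]. E330012B07Rik had 318 reads in null zygotes, 0 in 2-cell embryos and 626 in WT zygotes, at least 39.9-fold lower in 2-cell embryos than in WT zygotes on the same limit. Its 2-sided interval reaches 3.14%, and its null-to-WT ratio was 1.20 [0.821 to 1.73]. Gm12633 was the only member of the group past 2-fold, at 0.492 [0.269 to 0.848]. Among 11 members given no role, A430033K04Rik had 3002 reads in null zygotes, 323 in 2-cell embryos and 9026 in WT zygotes and a ratio of 0.786 [0.703 to 0.877]. Wdr92 (53 reads in null zygotes, 41 in 2-cell embryos and 353 in WT zygotes) and Ttc34 (52 reads in null zygotes, 20 in 2-cell embryos and 300 in WT zygotes) were lower in null zygotes, with ratios of 0.355 [0.141 to 0.766] and 0.410 [0.160 to 0.902].

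**Figure D4:**
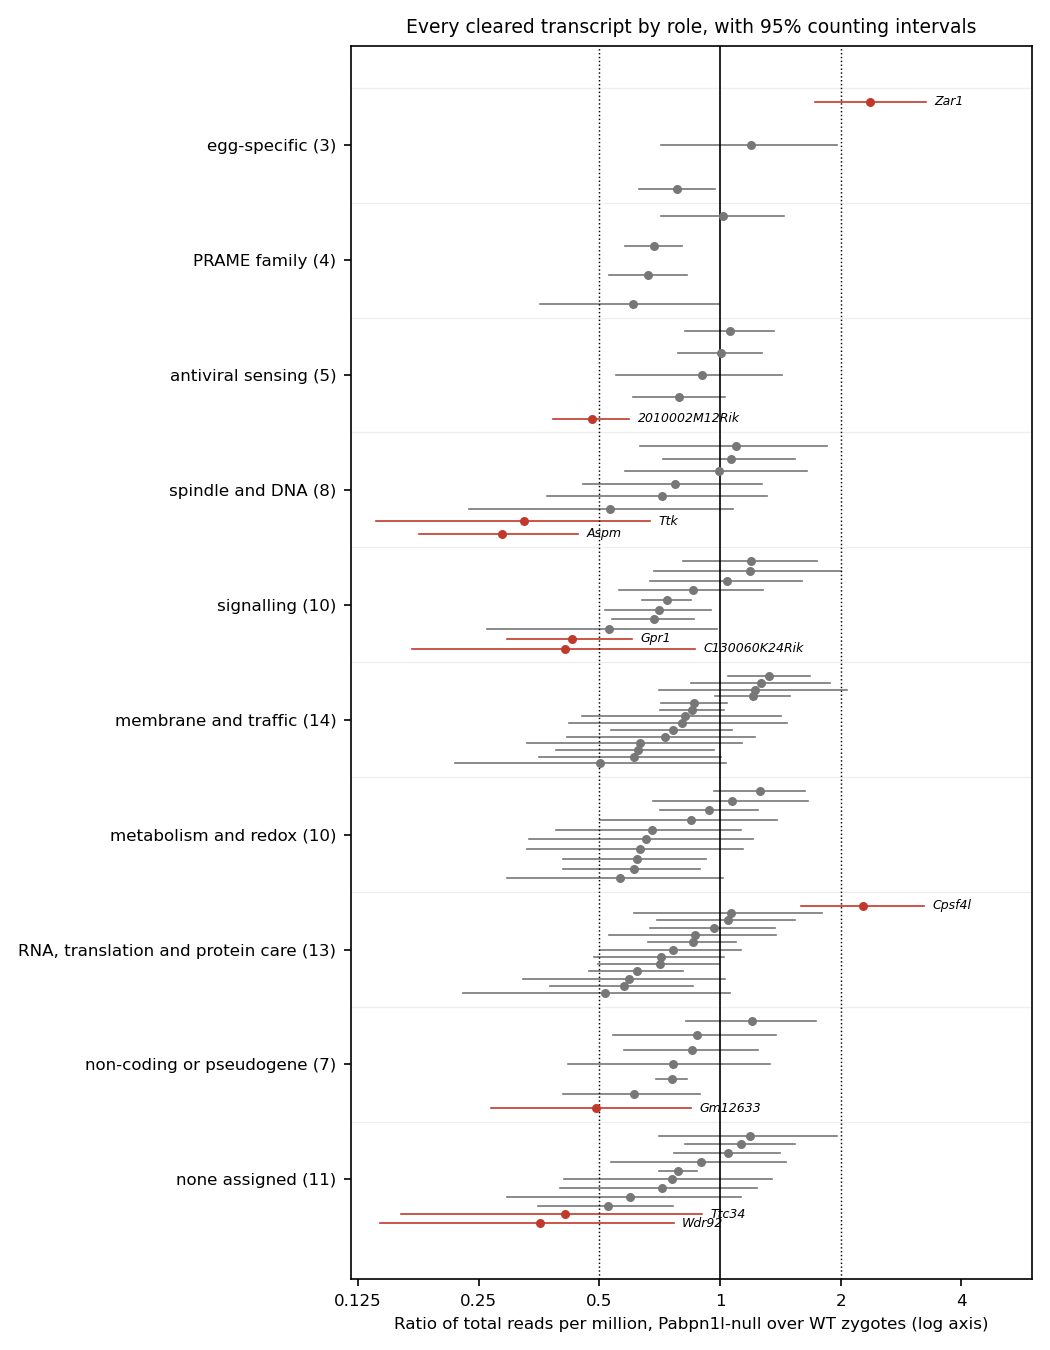
Ratio of total reads (RPM) in Pabpn1l-null over WT zygotes (x axis, log scale) for each of the 85 members, grouped by role (y axis, group size in brackets). Points are ratios, bars exact 95% counting intervals, and red marks the 10 members past 2-fold (dotted lines) whose interval leaves out 1. Most points lie left of 1 in most groups, and the 2 points past 2-fold on the right are Zar1 and Cpsf4l.

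A list of genes linked to the decay of maternal messages was read in the same columns. The list also holds genes of message storage or tail addition, such as Zar1, Lsm14b, Ybx2, Cpeb1 and Papola, and the coactivator gene Yap1. A called gene on it need not act in clearance. Of 71 listed genes 63 were in the table and 25 had at least 300 WT zygote reads, with a median log2 null-to-WT ratio of -0.02 against -0.10 for all 2112 genes. Of these 25, 3 were higher and 2 lower past 2-fold in null zygotes, against 1.7% higher and 4.97% lower among all genes. The higher genes were Dcp1a, a decapping cofactor (3464 reads in null zygotes and 2858 in WT zygotes, ratio 2.86 [2.51 to 3.27]), Lsm14b, an RNA granule protein of the oocyte (1659 reads in null zygotes and 1549 in WT zygotes, ratio 2.53 [2.10 to 3.05]), and Zar1. The lower genes were the CCR4-NOT genes Cnot2 (131 reads in null zygotes and 655 in WT zygotes, ratio 0.473 [0.271 to 0.782]) and Cnot4 (43 reads in null zygotes and 363 in WT zygotes, ratio 0.280 [0.0996 to 0.646]). Btg4 had 1619 reads in null zygotes, 4491 in 2-cell embryos and 3984 in WT zygotes, and its ratio was 0.960 [0.820 to 1.12]. Zar1 was the only gene of the 25 that belongs to the cleared set, and Btg4 kept 84.2% of its WT zygote level in 2-cell embryos.

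The label was read next. In the 2-cell and WT zygote columns T-to-C reads are part of the total reads used by the rule, so shares there are a description. Over all members T-to-C reads made up 3.70% [3.20% to 4.27%] of reads in null zygotes, 5.50% [4.30% to 6.91%] in 2-cell embryos and 2.86% [2.60% to 3.14%] in WT zygotes. The other 2027 genes had 3.85% in null zygotes, 4.40% in 2-cell embryos and 2.97% in WT zygotes. The order of the columns depends on the measure: the 2-cell share was the highest of the 3 in the sum, but as a median over members with at least 100 reads it was the lowest, at 1.52% against 2.98% in null zygotes and 1.96% in WT zygotes. No unlabelled sample was used here, so the part of these shares that comes from sequencing error or sequence differences is unknown. In RPM of all reads, the members' T-to-C reads had a null-to-WT ratio of 1.03 [0.863 to 1.23], against 1.28 for the other genes. Scaled to each column's own T-to-C total, the members' ratio was 0.811, below 1. At 2-fold or more with an interval that left out 1, 1 member had more T-to-C reads in null zygotes, against 1.42% of all 2112 genes. It was Cpsf4l (68 reads in null zygotes and 40 in WT zygotes, ratio 4.02 [1.29 to 13.9]). By the same 2 criteria Gpr1 alone was lower (3 reads in null zygotes and 122 in WT zygotes, ratio 0.0581 [1.79e-05 to 0.694]), against 0.142% of all genes. Other members lay past 2-fold in each direction, with intervals that held 1. Counts were small: 13 members had no T-to-C read in null zygotes and 39 none in 2-cell embryos, while 44 had at most 7, the size of 1 molecule, in null zygotes, 70 in 2-cell embryos and 21 in WT zygotes.

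A few members carried T-to-C mismatches in a large part of their reads. In WT zygotes 4 members were over 20%: Plac1l (43.2%), Gm10825 (28.1%), Pak1ip1 (25.8%) and Zar1 (24.9%). The share of Plac1l was 31.5% [14.7% to 52.8%] in null zygotes, against 30.2% [3.44% to 74.96%] in 2-cell embryos, and Zar1 had 18.4% [10.7% to 28.4%] in null zygotes and 33.8% [8.74% to 68.4%] in 2-cell embryos. The 2-cell interval of Plac1l, on 13 of 43 reads, held the 4.40% of the other genes, so its share there is not fixed by this depth. Whether labelled RNA or a fixed base difference from the reference genome gives these shares cannot be told apart here. Without these 4 the share in WT zygotes was 2.40%. In 2-cell embryos 12 members were over 20%, on few reads. For 3 of them the 2-cell interval lay wholly above the WT zygote interval. Neither this count nor those over 20% were made for the other genes. Whether they are unusual for members was therefore not tested. Gm13084 had 95 T-to-C reads of 301 in 2-cell embryos, 31.6% [18.3% to 47.5%], against 107 of 4682, 2.29% [1.29% to 3.73%], in WT zygotes. Riok1 had 54 of 93, 58.1% [28.9% to 83.6%], in 2-cell embryos against 16 of 918, 1.74% [0.258% to 5.73%], in WT zygotes. Lamtor3 had 21 of 47, 44.7% [10.4% to 83.4%], in 2-cell embryos against 2 of 589, 0.340% [up to 4.95%], in WT zygotes. These 3 were chosen after their shares were seen. In null zygotes the shares were 2.81% for Gm13084, 3.99% for Riok1 and 0.671% for Lamtor3, and no member had a null interval apart from its WT zygote interval.

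**Figure D5:**
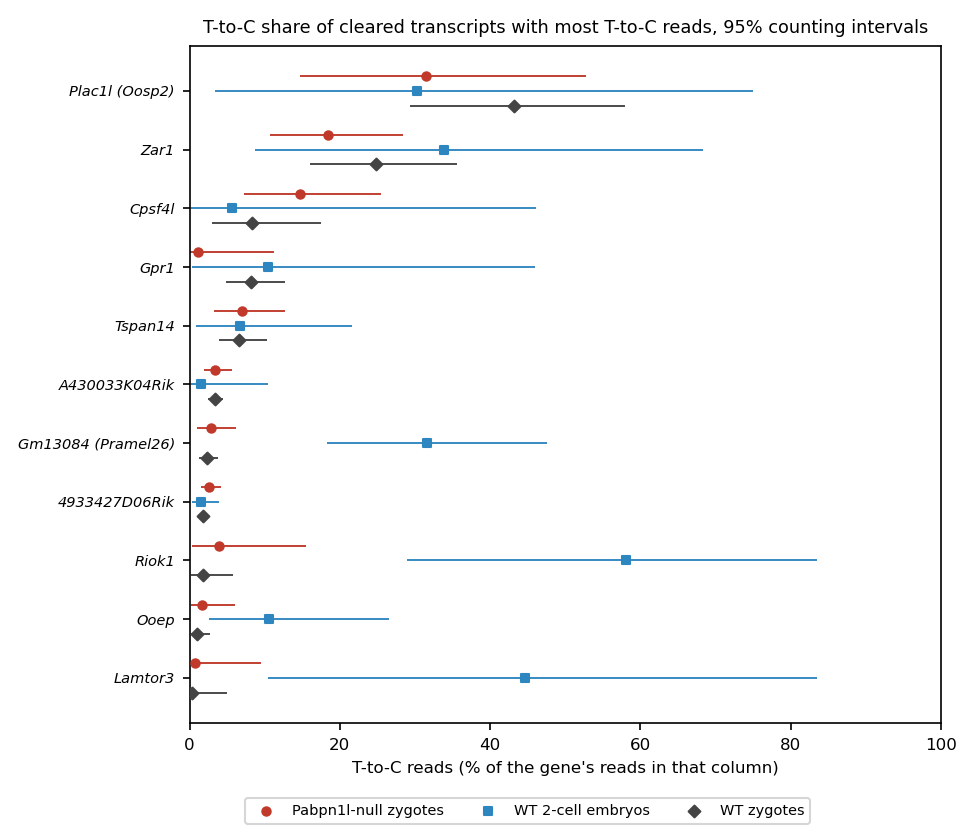
Share of each gene's reads that carry a T-to-C mismatch (x axis, percent) for the members with most T-to-C reads in any column, in Pabpn1l-null zygotes (circles), WT 2-cell embryos (squares) and WT zygotes (diamonds), with exact 95% counting intervals. Plac1l and Zar1 have the highest shares of these genes in null and WT zygotes, with wide intervals in 2-cell embryos, whereas Gm13084, Riok1 and Lamtor3 are high in 2-cell embryos only.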

How the data were processed

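The authors deposited 1 table of counts, with all reads and T-to-C reads of every row in separate columns for each group. The genome build was mm10, per the submitters' processing notes. How reads were aligned, counted by strand and freed of duplicates, and whether a column joins the 2 samples of its group, was not given in the sources used here. All 3 call columns were not used.

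For each name the row with the most summed reads was kept, 47 rows named by a date were left out, and deposited counts were scaled to RPM over the kept rows. For 6 members another, distinct row of the same name exists, and Ttk and Ppfibp2 would lie over 10% by theirs (20.6% and 24.8%). A fold of 2 with an exact conditional (Clopper-Pearson) 95% interval, on reads divided by 7, made a call; a count of 0 was bounded at 3 molecules, or 21 reads. Intervals cover counting error only. The code was tested on simulated data. An edgeR quasi-likelihood fit, planned in case the columns were per sample, needs replicates and could not be run. The TMM and RLE factors came from edgeR 4.0.16. R 4.3.3, Python 3.11.15, pandas 2.3.3, SciPy 1.17.1 and matplotlib 3.10.9 were used. RefSeq symbols matched 71 members directly and 14 by synonym. Coordinates of promoters and genes are those of RefSeq on GRCm38.p6.

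Members and gene lists were chosen with earlier results of these data known; roles, promoters shown and clone-named members were chosen after values were seen, as were other genes named for their role, as an end of a range or as the called genes of a list (such as Dlgap5, Dctn5, Smug1, Tdrd12, Rpe, Glrx, Akr1b3, Atp8a1, Cab39l, Rhbdf1, Mos, Mastl, Gdf9 and Furin). Named genes were otherwise the 10 members with most WT zygote reads, those past 2-fold (up to 8 per direction), the 6 with most T-to-C reads in null and in WT zygotes, the 5 lowest 2-cell levels, the 5 on each side of the 10% limit, up to 6 per gene list, and genes of the decay list past 2-fold.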

Additional observations from a re-analysis of the deposited data

How the results depend on the processing

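Each of 10 summary values was recomputed under other settings, 19 in all, which gave 68 values. Of these, 34 stayed close and 34 moved, most of them under settings that changed which genes were members. The members' T-to-C ratio turned from above to below 1, and the order of the T-to-C shares turned, as given below. With RLE factors there were 56 members, 0 higher and 4 lower in null zygotes, 4 past both criteria and a summed ratio of 0.827. A minimum of 100 reads gave 195 members, 5 higher, 29 lower and 17 past both criteria, and a minimum of 1000 reads gave 25 members, 0 higher, 3 lower and 3 past both. A 2-cell limit of 5% gave 27 members, 0 higher, 4 lower, 4 past both, a median log2 ratio of -0.55 and a summed ratio of 0.728. A limit of 20% gave 258 members, 5 higher, 20 lower, 25 past both, a median of -0.20 and a summed ratio of 0.969. At 1.5-fold 28 members were lower, and at 3-fold 0 were higher and 2 lower. With 20 reads as 1 molecule 5 members were past both criteria. As medians over members with at least 100 reads, T-to-C shares were 2.98% in null zygotes, 1.52% in 2-cell embryos and 1.96% in WT zygotes, and without the 4 members over 20%, a choice made after the shares were seen, the summed WT zygote share was 2.40%. Scaled by each column's own T-to-C total, the T-to-C ratio was 0.811. TMM and RLE moved the members' median log2 ratio to -0.39 and -0.34, and that of the other genes to -0.09 and -0.01.

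No paired analysis was possible because each group has a single pair of columns, which also means that no sample can be left out. The null column limits the depth, with 7 reads counted as 1 molecule, and each ratio compares single columns, so how far it holds in other embryos is unknown.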
